A study of Mus musculus with 11 samples.

Results

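The genes followed here guide thymocytes through the thymus and out of it: the chemokine receptors *Cxcr4*, *Ccr9*, *Ccr7* and *Ccr4*, the egress receptor *S1pr1*, the transcription factor *Foxo1*, the guidance receptor *Plxnd1*, and the adhesion receptors *Itgae* and *Cd44*. They were listed by name and matched by GENCODE symbol to the Ensembl identifiers of the count table, where they are 9 of 54418 genes. All 9 passed the filter on low counts in every comparison. RNA came from unsorted cells of the whole thymus, 5000000 cells per mouse, of mice aged 8 to 12 weeks on the C57BL/6-WEHI background. The groups were 4 wt mice, 4 *Zmat3-/-* mice, which lack the RNA-binding protein ZMAT3, and 3 *Puma-/-p21-/-Zmat3-/-* (TKO) mice, which also lack the apoptosis inducer PUMA (gene *Bbc3*) and the cell cycle inhibitor encoded by *p21* (gene *Cdkn1a*). The knockout alleles are carried in all tissues and not only in thymocytes, TKO mice were bred from *Zmat3-/-* and *Puma-/-p21-/-* mice, and no sequenced group lacked only *Puma* or only *p21*. The 3 pairwise comparisons of these genotypes asked what the loss of *Zmat3* does to the transcripts of thymocytes, and what the further loss of *Puma* and *p21* adds.

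A thymocyte reads its position from chemokines. CXCL12, the ligand of CXCR4, and CCL25, the ligand of CCR9, are made by the cortical stroma where immature CD4 and CD8 double-positive cells develop, whereas CCR7 and CCR4 draw positively selected cells to the medulla, and plexin D1 (*Plxnd1*) senses semaphorin 3E on that path. Mature single-positive cells then leave towards the sphingosine 1-phosphate (S1P) of the blood by S1PR1, whose gene lies downstream of FOXO1 and KLF2 and whose protein is kept off the cell surface by CD69. CD103 (*Itgae*) binds E-cadherin on epithelium, and CD44 binds hyaluronan and marks the earliest progenitors.

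The samples held thymocytes by their defining transcripts. *Cd4* had 959 to 1452 CPM (counts scaled to a common library size over the 11 mice) and *Cd8a* 1492 to 2027 CPM. Total counts were 17669715 to 80207003 per mouse. *Zmat3* was at 9.88, 12.2, 26.7 and 26.8 CPM in wt mice 1 to 4, against 5.34 to 6.85 CPM in *Zmat3-/-* mice and 7.78 to 8.25 CPM in TKO mice, so its transcript was lower but still counted. *Bbc3* and *Cdkn1a* were also counted in the TKO mice, at 12.9 to 15.2 and 2.49 to 3.52 CPM. All 3 targeted genes were lower in every TKO mouse than in every wt mouse, beside 12.1% of all genes without overlap in either direction. None of them had an adjusted p under 0.05 by edgeR's quasi-likelihood test in any pairwise comparison. That test thus did not call the knocked-out genes themselves. The wt mice resembled each other least, with correlations of log2 CPM across genes of 0.897 to 0.982 between wt mice, against 0.985 to 0.990 between *Zmat3-/-* mice, and wt mouse 1 stood farthest from its group (median 0.898). The labels give no sex, but *Xist* split them: wt 1 and 2, *Zmat3-/-* 1 and 2 and TKO 1 held 505 to 1485 CPM, and the other mice 0.806 to 2.54 CPM. In the same wt mice 1 and 2 the recombinase gene *Rag1* was at 1603 and 2243 CPM, against 5270 and 4939 CPM in wt mice 3 and 4.

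To compare genes, levels were divided by the union of all annotated exons, 1808 bases for *Cxcr4* and 10260 for *Ccr9*. The order given here depends on these lengths. Before the division *Ccr9* was the higher of the 2 in wt mice, with a mean of 723 CPM against 261 CPM for *Cxcr4*. Per kb, *Cxcr4* was highest in wt mice, at 144 CPM per kb, followed by *Ccr9* at 70.5 and *Plxnd1* at 57.9 CPM per kb. *Ccr7* at 31.0 and *Ccr4* at 13.4 CPM per kb came next. *S1pr1* at 8.06, *Foxo1* at 7.31, *Itgae* at 5.72 and *Cd44* at 3.38 CPM per kb were the lowest. In wt mice the ranges overlapped between neighbours in this order only for *Ccr9* with *Plxnd1* and for *S1pr1* with *Foxo1*. In both knockout genotypes *Ccr9* led the order, at 85.0 CPM per kb in *Zmat3-/-* and 96.1 CPM per kb in TKO mice, with *Cxcr4* at 72.6 and 76.9 CPM per kb. In those mice the highest levels were those of *Ccr9*, *Cxcr4* and *Plxnd1*, whose ranges overlapped between neighbours, and *Ccr7* was below all of them.

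**Figure D1:**
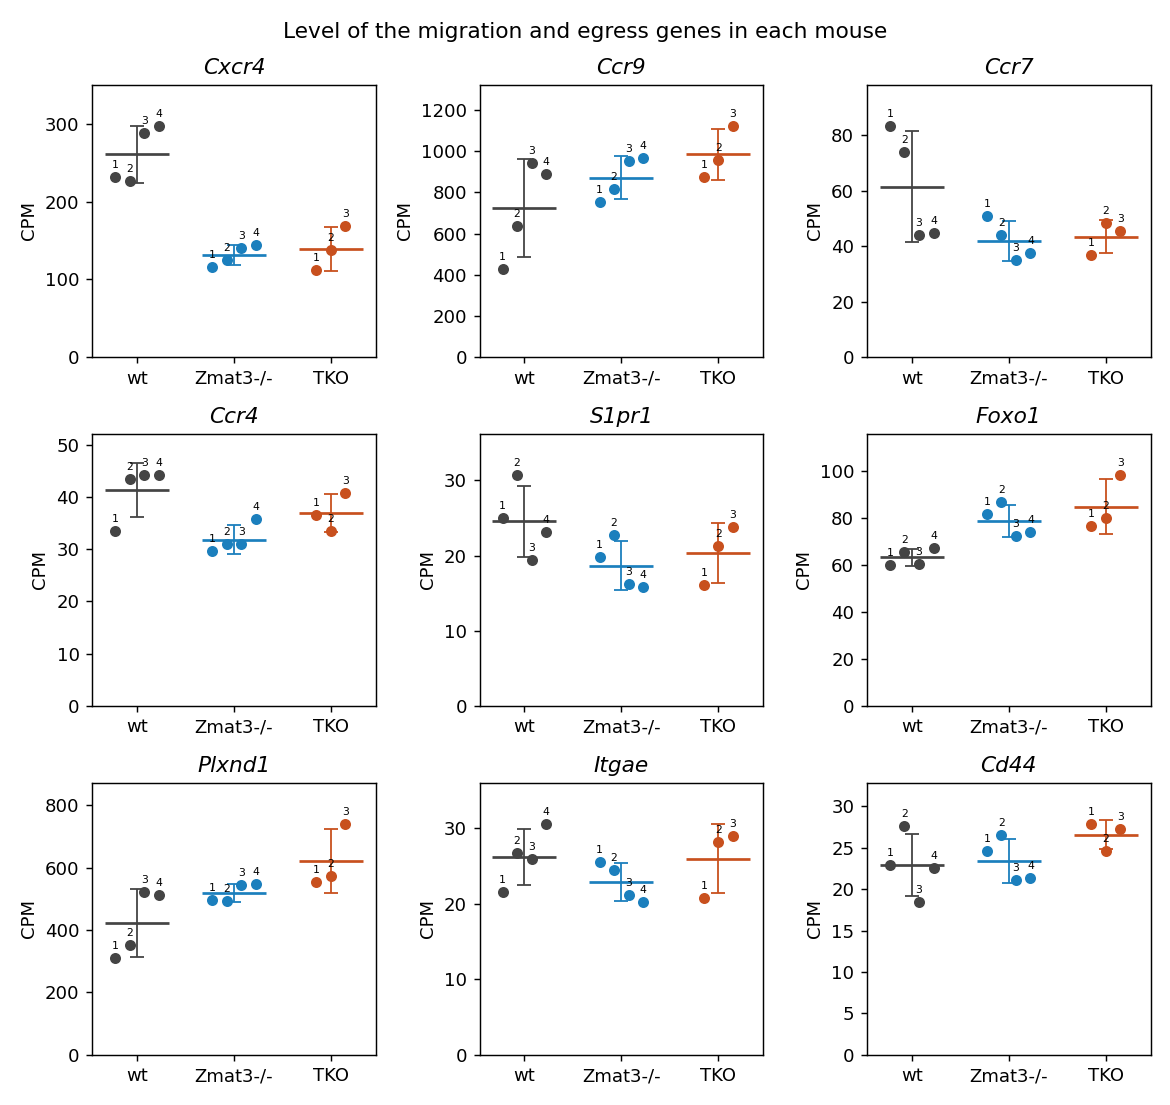
Level (CPM, from 0) of the 9 genes in each mouse, with the mouse number beside each point, the group mean as a horizontal line and the SD as an error bar, for 4 wt, 4 *Zmat3-/-* and 3 TKO mice. *Cxcr4* sits at 227 to 297 CPM in wt mice and at 111 to 168 CPM in the 7 knockout mice, whereas *Ccr9*, *Ccr7* and *Plxnd1* split wt mice 1 and 2 from wt mice 3 and 4.

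*Cxcr4* showed the widest separation between genotypes of the 9 genes. It is on chromosome 1 of GRCm38 from 128588199 to 128592293 on the minus strand (ENSMUSG00000045382.6). Its level was 231, 227, 288 and 297 CPM in wt mice 1 to 4, 116, 125, 140 and 145 CPM in *Zmat3-/-* mice 1 to 4, and 111, 137 and 168 CPM in TKO mice 1 to 3. Every wt mouse was above every knockout mouse, and the ranges of both knockout genotypes overlapped. Wt mice averaged 261 ± 36.8 CPM (SD, n = 4), *Zmat3-/-* mice 131 ± 13.3 CPM (SD, n = 4) and TKO mice 139 ± 28.5 CPM (SD, n = 3). These levels rested on 2473 to 12528 counts per mouse.

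In *Zmat3-/-* against wt mice *Cxcr4* fell to 0.504 of the wt level (log2FC −0.99, standard error 0.141, adjusted p = 0.0248 from edgeR's quasi-likelihood test). It was the only member of the 9 with an adjusted p under 0.05, where 103 of 13494 genes tested (0.763%) had one. Its log2FC lay at the 1.53 percentile of all genes tested. When same-numbered mice were paired in a replicate block, which called 12 genes (0.0889%), the log2FC was −0.98 and the adjusted p = 0.0613. The call was also lost without wt mouse 3 (adjusted p = 0.0592), without wt mouse 4 (0.0603) and without *Zmat3-/-* mouse 1, 2, 3 or 4 (0.116, 0.117, 0.113 and 0.0855), and the log2FC lay between −1.06 and −0.91 over the 8 fits that left out 1 mouse each. Of the 9 genes, *Cxcr4* and *Foxo1* had ranges that did not overlap with wt mice, as did 14.1% of all genes tested.

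TKO mice held 0.514 of the wt level of *Cxcr4* (log2FC −0.96, standard error 0.179), with an adjusted p of 0.128. None of the 9 genes had an adjusted p under 0.05 in the main pairwise edgeR fit, where 0.294% of all genes did. In that fit 2 of the 9, *Cxcr4* and *Foxo1*, had an unadjusted p under 0.05, where 10.3% of all genes did. DESeq2, which called 2.87% of all genes, gave *Cxcr4* an adjusted p of 0.000229. An edgeR fit of all 3 genotypes together (1.63% of genes called) gave it 0.0113, and an edgeR fit with the *Xist* level (0.392%) gave 0.0169. Both comparisons use the same 4 wt mice, so they are not independent. TKO and *Zmat3-/-* mice differed by a log2FC of 0.03 (standard error 0.107, adjusted p = 0.993). Neither edgeR nor DESeq2, which called 0.556% of all genes there, called any of the 9 genes in that comparison.

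The lower level of *Cxcr4* was found on both sides of the *Xist* split. Among mice with high *Xist* the mean log2 CPM differed from wt mice by −0.93 in *Zmat3-/-* (2 against 2 mice) and −1.04 in TKO mice (1 against 2). Among mice with low *Xist* the differences were −1.04 (2 against 2 mice) and −0.94 (2 against 2). In bulk RNA a smaller share of cells that express *Cxcr4* cannot be told apart from less *Cxcr4* RNA per cell. The 9 double-positive markers summed to 8773 to 12338 CPM in wt, 9683 to 11799 CPM in *Zmat3-/-* and 10434 to 13961 CPM in TKO mice, and none of them had an adjusted p under 0.05. *Rag1*, at 1603 to 5270 CPM in wt mice, carried much of the spread of this sum. Among single markers, 4 of 10 in the thymocyte list, *Cd3e*, *Cd8a*, *Thy1* and *Rag2*, were lower in every *Zmat3-/-* mouse than in every wt mouse, beside 14.1% of all genes with ranges that did not overlap in either direction. *Cd8a* was at 1855 to 2027 CPM in wt and 1492 to 1708 CPM in *Zmat3-/-* mice (log2FC −0.23, standard error 0.118, adjusted p = 0.368). *Cd3e* was at 435 to 561 CPM and 322 to 364 CPM (log2FC −0.47, standard error 0.109, adjusted p = 0.0966). In TKO mice only *Rag2* of these 4 was clear of the wt mice, beside 12.1% of all genes. The 11 markers of mature single-positive cells summed to 1193 to 1447 CPM, 1127 to 1252 CPM and 1208 to 1222 CPM in the same order. Of these, *Ms4a4b*, *Gimap3* and *H2-Q7* were lower in every knockout mouse of both genotypes than in every wt mouse, beside 14.1% and 12.1% of all genes without overlap in *Zmat3-/-* and TKO against wt mice. *Ms4a4b* fell in *Zmat3-/-* against wt mice (log2FC −0.49, standard error 0.0787, adjusted p = 0.0344), a call lost with the replicate block (0.192), without the low-count filter (0.126) and without any mouse but wt 1 (0.0690 to 0.160). No gene of the thymocyte, double-negative, regulatory T cell, gamma-delta T cell, stroma, myeloid, B cell and erythroid lists had an adjusted p under 0.05 in any comparison. The erythroid sum varied most, from 880 to 8558 CPM in wt mice. The part of cell composition in the level of *Cxcr4* was not tested.

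Immediate-early genes, which cells induce within minutes of stimulation or handling, moved in the same mice. Of 20 such genes, 6 rose in *Zmat3-/-* against wt mice at an adjusted p under 0.05 in edgeR, *Fosb*, *Klf4*, *Klf6*, *Dusp1*, *Dusp5* and *Nr4a1*, beside 0.763% of all genes called. No other gene of the list passed. Without overlap, 10 genes, the 6 called ones among them, were higher and 3, *Egr1*, *Egr2* and *Btg2*, were lower in *Zmat3-/-* than in wt mice, beside 14.1% of all genes with ranges that did not overlap in either direction. *Btg2* was at 444 to 523 CPM in wt and 351 to 373 CPM in *Zmat3-/-* mice (log2FC −0.45, standard error 0.0961, adjusted p = 0.0796). The same 6 genes rose in TKO against wt mice, beside 0.294% of all genes called, where 10 genes of the list were higher and 2, *Egr2* and *Btg2*, lower without overlap, beside 12.1% of all genes. With the replicate block, the calls of *Klf4* (adjusted p = 0.0108), *Fosb* (0.0133) and *Dusp5* (0.0320) remained in *Zmat3-/-* against wt mice, and those of *Nr4a1* (0.0511), *Dusp1* (0.0613) and *Klf6* (0.110) were lost. Of the 6 calls in that comparison, all remained without wt mouse 1 or 2, 4 without wt mouse 3 or 4 or *Zmat3-/-* mouse 3, and 2 without *Zmat3-/-* mouse 1, 2 or 4. In TKO against wt mice all 6 remained without wt mouse 1, 2 without wt mouse 2, 3 or 4 or TKO mouse 2, and 1 without TKO mouse 1 or 3. There 1 surrogate variable kept the calls of *Fosb* and *Klf4* and ended the other 4 (adjusted p 0.0799 to 0.123), and the *Xist* level ended that of *Dusp5* (0.0527). Summed over the 20 genes, the level was 2158, 1955, 1185 and 1166 CPM in wt mice 1 to 4, 2483 to 3039 CPM in *Zmat3-/-* and 2533 to 3169 CPM in TKO mice. Wt mice 1 and 2, with the higher sums, had 231 and 227 CPM of *Cxcr4*, and wt mice 3 and 4 had 288 and 297 CPM. *Zmat3-/-* mice 1 to 4 had sums of 2889, 3039, 2483 and 2969 CPM, with *Cxcr4* at 116, 125, 140 and 145 CPM. TKO mice 1 to 3 had sums of 2980, 2533 and 3169 CPM, with *Cxcr4* at 111, 137 and 168 CPM. TKO mouse 3 thus had both the highest sum and the most *Cxcr4* of the knockout mice. The part of these genes in the level of *Cxcr4* was not tested.

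The promoters of *Cxcr4* and *Foxo1* are given because these are the members whose ranges did not overlap with wt mice in either knockout genotype. Each line holds the 250 bases before the RefSeq start of transcription in GRCm38.p6, 5′ to 3′ on the strand of the gene. *Cxcr4* is at chr1:128592300-128592549 on the minus strand and *Foxo1* at chr3:52268087-52268336 on the plus strand. Capitals mark the GC box GGGCGG or its reverse complement, the sequence bound by SP1 and KLF proteins:
Cxcr4: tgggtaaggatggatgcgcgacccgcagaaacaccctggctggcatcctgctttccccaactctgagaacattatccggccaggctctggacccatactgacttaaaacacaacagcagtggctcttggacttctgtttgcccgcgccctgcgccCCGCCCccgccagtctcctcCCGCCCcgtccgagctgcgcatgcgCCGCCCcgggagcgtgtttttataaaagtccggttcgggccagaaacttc
Foxo1: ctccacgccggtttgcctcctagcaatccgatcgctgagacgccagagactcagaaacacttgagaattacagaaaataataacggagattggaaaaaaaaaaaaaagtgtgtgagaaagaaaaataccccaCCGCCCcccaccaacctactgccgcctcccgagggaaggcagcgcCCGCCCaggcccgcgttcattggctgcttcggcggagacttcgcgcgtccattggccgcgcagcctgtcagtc
The *Cxcr4* promoter holds 3 GC boxes and the *Foxo1* promoter 2, and 32.7% of 32851 promoter windows of this length hold at least 1 on either strand. Neither window contains the AP-1 letters TGANTCA (in 6.75% of windows), the CRE letters TGACGTCA (1.55%) or the FOXO letters TGTTTAC (3.17%) on either strand. Of the 9 members 6 had a RefSeq window; *Ccr7*, *S1pr1* and *Itgae* had none.

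*Ccr9*, the CCL25 receptor of double-positive cells, varied more within wt mice than between genotypes. It was at 428, 634, 941 and 888 CPM in wt mice 1 to 4, at 755, 814, 952 and 965 CPM in *Zmat3-/-* mice, and at 877, 960 and 1121 CPM in TKO mice. Wt mice 1 and 2 were below all other mice, while wt mice 3 and 4 lay within the range of the knockout mice. The log2FC was 0.27 (standard error 0.252, adjusted p = 0.618) in *Zmat3-/-* and 0.40 (0.283, adjusted p = 0.632) in TKO against wt mice. Among mice with low *Xist* the mean log2 CPM of *Zmat3-/-* mice differed from that of wt mice by 0.07, and among mice with high *Xist* by 0.59. Of the 10260 exon bases of *Ccr9*, 1932 (18.8%) are shared with AC165425.1 on the opposite strand, a gene with a median of 2.19 CPM. The library kit does not keep the strand, so reads of the 2 genes cannot be told apart there.

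*Ccr7*, the receptor for CCL19 and CCL21 that brings selected cells into the medulla, was highest in the same wt mice 1 and 2. Its level was 83.1, 73.8, 44.1 and 44.6 CPM in wt mice 1 to 4, 50.9, 44.0, 35.03 and 37.4 CPM in *Zmat3-/-* mice, and 36.7, 48.2 and 45.3 CPM in TKO mice. Only wt mice 1 and 2 were clear of the knockout mice. The log2FC of *Ccr7* was −0.54 (standard error 0.227, adjusted p = 0.289) in *Zmat3-/-* and −0.54 (0.258, adjusted p = 0.516) in TKO against wt mice. Within mice with low *Xist* the differences of mean log2 CPM were −0.29 for *Zmat3-/-* and 0.07 for TKO mice, and within those with high *Xist* they were −0.73 and −1.09.

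*Ccr4*, the receptor for CCL17 and CCL22 on newly selected cells, was at 33.5, 43.5, 44.1 and 44.2 CPM in wt mice 1 to 4. It was at 29.6, 31.0, 31.0 and 35.8 CPM in *Zmat3-/-* mice and at 36.6, 33.5 and 40.8 CPM in TKO mice. The overlap with wt mice came from wt mouse 1 alone, which was at the level of the knockout mice. The log2FC was −0.37 (standard error 0.124, adjusted p = 0.197) in *Zmat3-/-* against wt and −0.21 (0.141, adjusted p = 0.621) in TKO against wt mice. Without wt mouse 1 the first became −0.47, with an adjusted p of 0.0820.

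*S1pr1*, which carries mature cells out of the thymus, had 25.01, 30.7, 19.4 and 23.1 CPM in wt mice 1 to 4, 19.9, 22.7, 16.3 and 15.8 CPM in *Zmat3-/-* mice, and 16.03, 21.3 and 23.9 CPM in TKO mice. All 3 groups overlapped. Its log2FC was −0.39 (standard error 0.167, adjusted p = 0.304) and −0.31 (0.190, adjusted p = 0.593) in *Zmat3-/-* and TKO against wt mice. Of the 14 and 12 further genes of the S1P axis tested in these comparisons, edgeR called none, while DESeq2 called *Cd69* (adjusted p = 0.00986) and *S1pr4* (0.0333) in the first, beside 8.04% of all genes called, and *Cd69* (0.00239) in the second, beside 2.87%. *S1pr4*, another S1P receptor, was at 30.2 to 45.9 CPM in wt, 24.0 to 26.8 CPM in *Zmat3-/-* and 25.8 to 30.6 CPM in TKO mice, with a log2FC of −0.48 (standard error 0.140, adjusted p = 0.150 in edgeR) in *Zmat3-/-* against wt mice. *Klf2*, the factor that switches on *S1pr1*, ranged from 20.9 to 66.8 CPM in wt mice and covered the knockout mice, with a log2FC of 0.29 (standard error 0.401, adjusted p = 0.736) in *Zmat3-/-* and 0.07 (0.406, adjusted p = 0.951) in TKO against wt mice. *Cd69* was at 49.8 to 58.0 CPM in wt, 66.0 to 82.9 CPM in *Zmat3-/-* and 74.8 to 79.4 CPM in TKO mice, which did not overlap with wt mice. Its log2FC was 0.40 (standard error 0.105, adjusted p = 0.121) and 0.46 (0.115, adjusted p = 0.274), so it did not pass edgeR's test.

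*Foxo1*, the factor upstream of *Klf2*, *Il7r* and *Ccr7*, had the narrowest spread of the 9 genes in wt mice, relative to its mean. It is on chromosome 3 from 52268336 to 52353221 (ENSMUSG00000044167.6). The level was 60.01, 65.6, 60.4 and 67.2 CPM in wt mice 1 to 4, 81.5, 86.7, 72.3 and 74.0 CPM in *Zmat3-/-* mice, and 76.4, 79.8 and 98.1 CPM in TKO mice. All 7 knockout mice were above all wt mice. The log2FC of 0.32 (standard error 0.0933, adjusted p = 0.152) in *Zmat3-/-* and 0.37 (0.113, adjusted p = 0.362) in TKO against wt mice did not pass edgeR's test. DESeq2, which called 8.04% and 2.87% of all genes, gave adjusted p-values of 0.0166 and 0.0314 for the same differences. The log2FC of the FOXO target *Il7r* was −0.16 (standard error 0.162, adjusted p = 0.645) and −0.25 (0.191, adjusted p = 0.643).

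*Plxnd1*, the semaphorin 3E receptor, was at 309, 351, 521 and 512 CPM in wt mice 1 to 4, 495, 494, 542 and 547 CPM in *Zmat3-/-* mice, and 553, 573 and 739 CPM in TKO mice. Wt mice 1 and 2 were again the lowest, and TKO mice were above all mice of both other genotypes. The log2FC was 0.30 (standard error 0.195, adjusted p = 0.485) in *Zmat3-/-* against wt, 0.50 (0.230, adjusted p = 0.504) in TKO against wt and 0.20 (0.0807, adjusted p = 0.983) in TKO against *Zmat3-/-* mice. With *Plxnd1*, 3 of the 9 genes had ranges that did not overlap between TKO and wt mice, beside 12.1% of all genes. Between TKO and *Zmat3-/-* mice *Plxnd1* was the only one, beside 4.92% of all genes. In that comparison 0.221% of all genes had an adjusted p under 0.05, and of the 9 only *Plxnd1* had an unadjusted p under 0.05, beside 4.50% of all genes. *Sema3e*, its ligand, was too low to be tested.

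*Itgae* was at 21.5, 26.7, 25.9 and 30.5 CPM in wt mice 1 to 4, 25.5, 24.4, 21.2 and 20.2 CPM in *Zmat3-/-* mice, and 20.7, 28.2 and 29.0 CPM in TKO mice. *Cd44* was at 22.9, 27.7, 18.4 and 22.6 CPM, at 24.6, 26.5, 21.1 and 21.3 CPM, and at 27.9, 24.6 and 27.3 CPM in the same order. Both adhesion receptors overlapped in every pair of genotypes. The log2FC of *Itgae* was −0.19 (standard error 0.138, adjusted p = 0.522) in *Zmat3-/-* and −0.06 (0.177, adjusted p = 0.906) in TKO against wt mice. *Cd44* had a log2FC of 0.04 (0.138, adjusted p = 0.904) and 0.18 (0.159, adjusted p = 0.684). The counts are summed per gene, so variant isoforms of *Cd44* are not resolved.

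**Figure D2:**
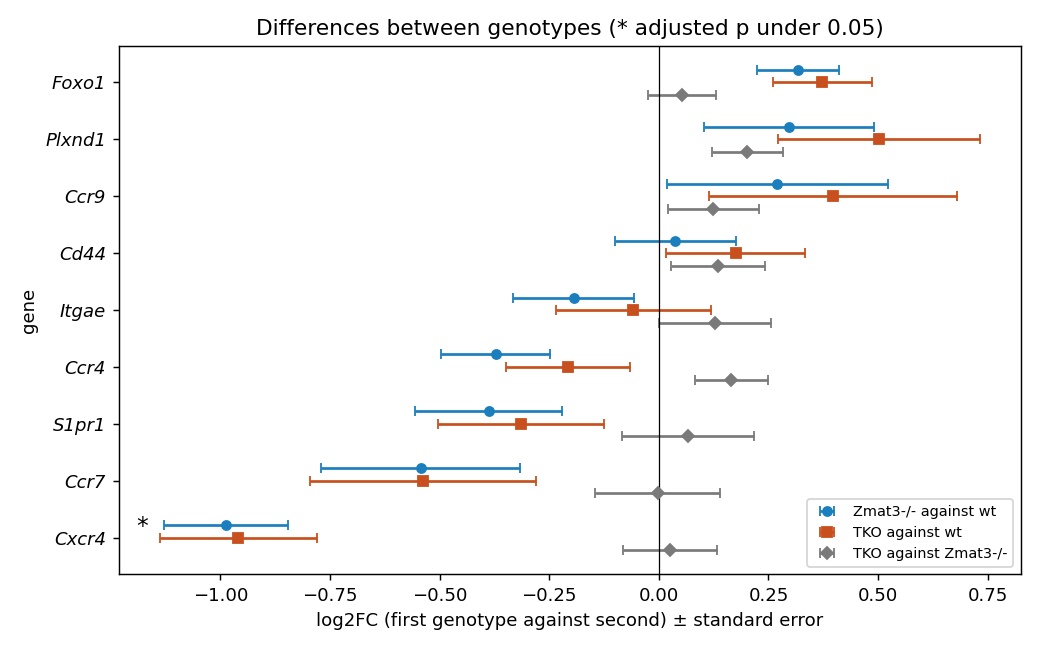
log2FC (horizontal axis) of the 9 genes (vertical axis) with its standard error in the comparisons of *Zmat3-/-* with wt (circles), TKO with wt (squares) and TKO with *Zmat3-/-* mice (diamonds). Only *Cxcr4* in *Zmat3-/-* against wt mice, at −0.99, carries the star for an adjusted p under 0.05, and its value in TKO against *Zmat3-/-* mice is 0.03.

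None of the 9 genes passed the study's rule for differential expression, an adjusted p under 0.05 with an absolute log2FC above 1.5, which 0.319%, 0.241% and 0.122% of all genes passed in *Zmat3-/-* against wt, TKO against wt and TKO against *Zmat3-/-* mice. The median log2FC of the 9 genes was −0.19, −0.06 and 0.12 in these comparisons, beside −0.03, −0.04 and −0.01 over all genes tested. In *Zmat3-/-* against wt mice, 5 of the 9 genes, *Cxcr4*, *Foxo1*, *Ccr4*, *Ccr7* and *S1pr1*, had an unadjusted p under 0.05, beside 16.1% of all genes. With 1 surrogate variable in the fit, 17.1% of all genes were called in that comparison, and of the 9 genes *Cxcr4*, *Foxo1*, *Ccr4*, *Ccr7* and *Plxnd1* were.

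The wider machinery of migration was counted over 7 lists of 108 genes: other chemokine and chemoattractant receptors, ligands, the S1P axis, the FOXO pathway, integrins and adhesion, G proteins and motility, and plexins and semaphorins. In *Zmat3-/-* against wt mice, 1 of the 95 tested genes rose and none fell by edgeR's test, where 54 and 49 of all genes did. DESeq2 called 9 of the 95 (9.47%), beside 8.04% of all genes. Higher by that test were *Gnai3* (adjusted p = 0.00302), *Sgk1* (8.22e-20), *Cd69* (0.00986), *Foxo3* (0.00278) and *Cx3cr1* (0.0369), and lower were *Ccl25* (0.00841), *Ccr3* (0.00931), *S1pr4* (0.0333) and *Gpr183* (6.31e-06). *Sgk1*, a kinase that phosphorylates FOXO proteins, was the gene called by both. It had 21.3, 26.1, 24.8 and 25.7 CPM in wt mice 1 to 4, 46.2, 47.9, 49.7 and 51.9 CPM in *Zmat3-/-* mice, and 51.6, 46.6 and 44.1 CPM in TKO mice. Every knockout mouse was above every wt mouse, with a gap wider than the range of any group. The log2FC of *Sgk1* was 1.00 (standard error 0.100, adjusted p = 0.00505) in *Zmat3-/-* against wt and 0.92 (0.148, adjusted p = 0.0706) in TKO against wt mice. Under the replicate block the first was 1.01, with an adjusted p of 0.0560.

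In TKO against wt mice none of the 93 tested genes passed, beside 0.294% of all genes, and 8 had an unadjusted p under 0.05, beside 10.3% of all genes. DESeq2 called 3 of the list genes in this comparison (3.23%, beside 2.87% of all genes), *Sgk1* (adjusted p = 3.02e-06), *Cd69* (0.00239) and *Foxo3* (0.0424). In TKO against *Zmat3-/-* mice 1 of 93 rose and none fell in edgeR, which called 0.221% of all genes. DESeq2 called that gene and *Plxna1* (adjusted p = 0.0317), 2 of 93, beside 0.556% of all genes. The gene called by both was *Pdpk1*, the kinase PDK1 that activates AKT and SGK proteins. Its level was 96.6, 115, 212 and 211 CPM in wt mice 1 to 4, 222 to 245 CPM in *Zmat3-/-* mice and 305 to 404 CPM in TKO mice, with no overlap. The log2FC was 0.50 (standard error 0.0714, adjusted p = 0.0188) against *Zmat3-/-* mice, and 1.05 (0.307, adjusted p = 0.349) against wt mice. *Pdpk1* lies on chromosome 17 from 24073680 to 24150924, the chromosome that also carries *Cdkn1a*, from 29090976 to 29100727. The call remained without TKO mouse 1 (adjusted p = 0.0334) or TKO mouse 3 (0.0275). It was lost without TKO mouse 2 (0.0832) and without *Zmat3-/-* mouse 1, 2, 3 or 4 (0.104, 0.113, 0.0815 and 0.0830), with log2FC from 0.45 to 0.54. It was also lost with the replicate block (adjusted p = 0.110) and in the fit of all 3 genotypes (1.00), where the standard error was 0.254.

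**Figure D3:**
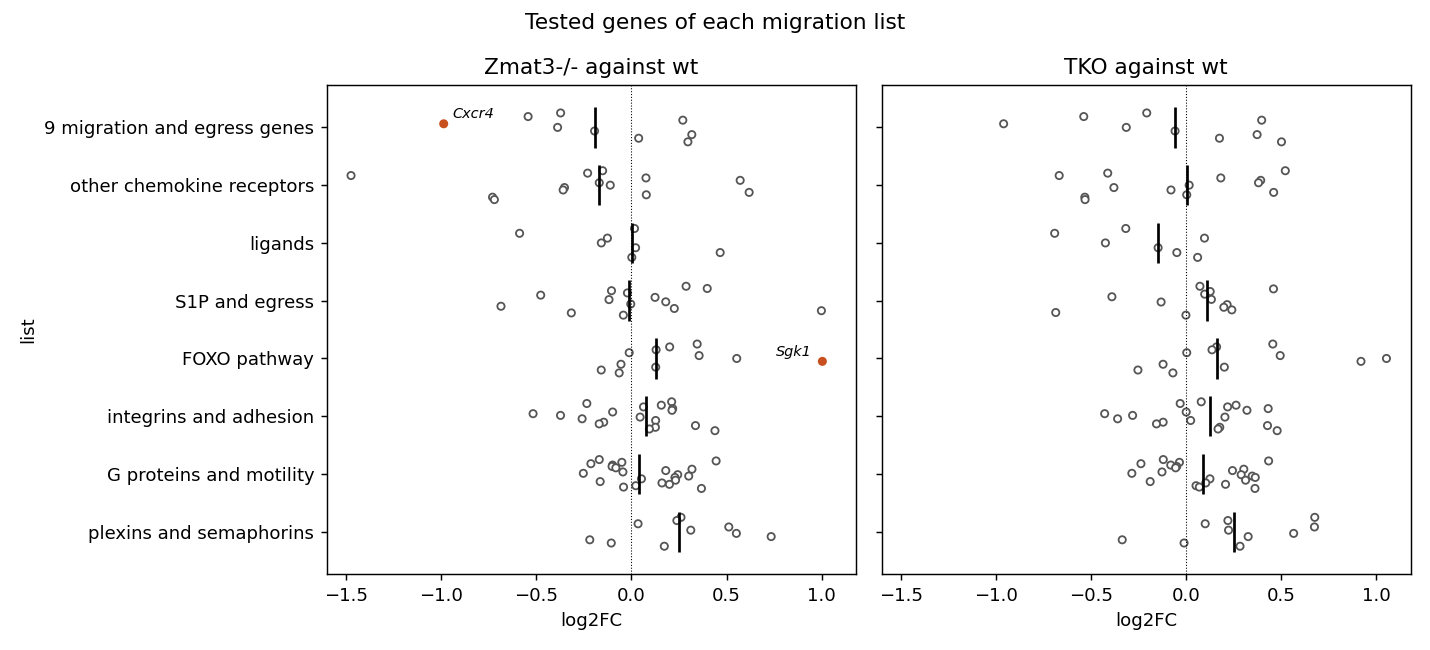
log2FC (horizontal axis) of each tested gene in the 9 migration and egress genes and in 7 further lists (vertical axis), in *Zmat3-/-* against wt (left) and TKO against wt mice (right). Filled points have an adjusted p under 0.05 and black bars are list medians; *Cxcr4* at −0.99 and *Sgk1* at 1.00 are the filled points on the left, and there are none on the right.

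The median log2FC of the plexins and semaphorins was 0.25 in both *Zmat3-/-* and TKO against wt mice, with no call. In each, 8 of 10 tested genes were above 0, beside 6316 of 13494 and 6068 of 13260 of all genes. Some of them split the wt mice. *Plxna1* was at 8.63, 8.69, 16.8 and 20.9 CPM in wt mice 1 to 4, and *Nrp1* at 10.5, 13.4, 26.1 and 23.0 CPM. *Sema4a* split them the other way, at 55.5, 52.7, 34.9 and 41.5 CPM. The other chemoattractant receptors had medians of −0.17 and 0.00 over 13 tested genes. Among them *Gpr183*, which guides T cells along oxysterols, was at 11.03 to 13.8 CPM in wt, 6.49 to 8.04 CPM in *Zmat3-/-* and 7.75 to 10.3 CPM in TKO mice, without overlap with wt mice. Its log2FC of −0.72 (standard error 0.129, adjusted p = 0.0509) and −0.53 (0.187, adjusted p = 0.426) did not pass the test. DESeq2 called the first (adjusted p = 6.31e-06). *Gpr183* was named after its values were seen.

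Ligands of the 4 chemokine receptors come from stroma and myeloid cells and were measured here in the whole suspension. *Cxcl12*, the ligand of CXCR4, was at 6.64 to 16.3 CPM in wt, 8.80 to 14.1 CPM in *Zmat3-/-* and 4.76 to 12.1 CPM in TKO mice. All 3 ranges overlapped, and its log2FC was 0.02 (standard error 0.274, adjusted p = 0.979) and −0.32 (0.441, adjusted p = 0.781). *Ccl25*, the ligand of CCR9, was at 44.0, 44.1, 30.8 and 43.3 CPM in wt mice 1 to 4, 24.4 to 31.7 CPM in *Zmat3-/-* mice and 16.4 to 30.9 CPM in TKO mice. Wt mouse 3 overlapped with the knockout mice, and the log2FC of −0.59 (standard error 0.146, adjusted p = 0.110) and −0.69 (0.283, adjusted p = 0.462) did not pass edgeR's test, while DESeq2 called the first (adjusted p = 0.00841). *Ccl17*, *Ccl22* and *Ccl21a* had log2FC of 0.02, 0.47 and −0.16 in *Zmat3-/-* against wt mice, with adjusted p-values of 0.984, 0.634 and 0.853. In TKO against wt mice they were −0.15, −0.05 and −0.42, with adjusted p-values of 0.932, 0.976 and 0.794. Reads of *Ccl21a* are uncertain because near-identical copies of the gene exist. Its symbol matched 2 identifiers, and only the first (ENSMUSG00000094686.1) was used. The 10 markers of thymic stroma summed to 160 to 261 CPM in wt, 192 to 208 CPM in *Zmat3-/-* and 189 to 198 CPM in TKO mice, and 10 myeloid markers to 193 to 375, 263 to 364 and 170 to 402 CPM. Their part in the ligand levels was not tested.

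**Figure D4:**
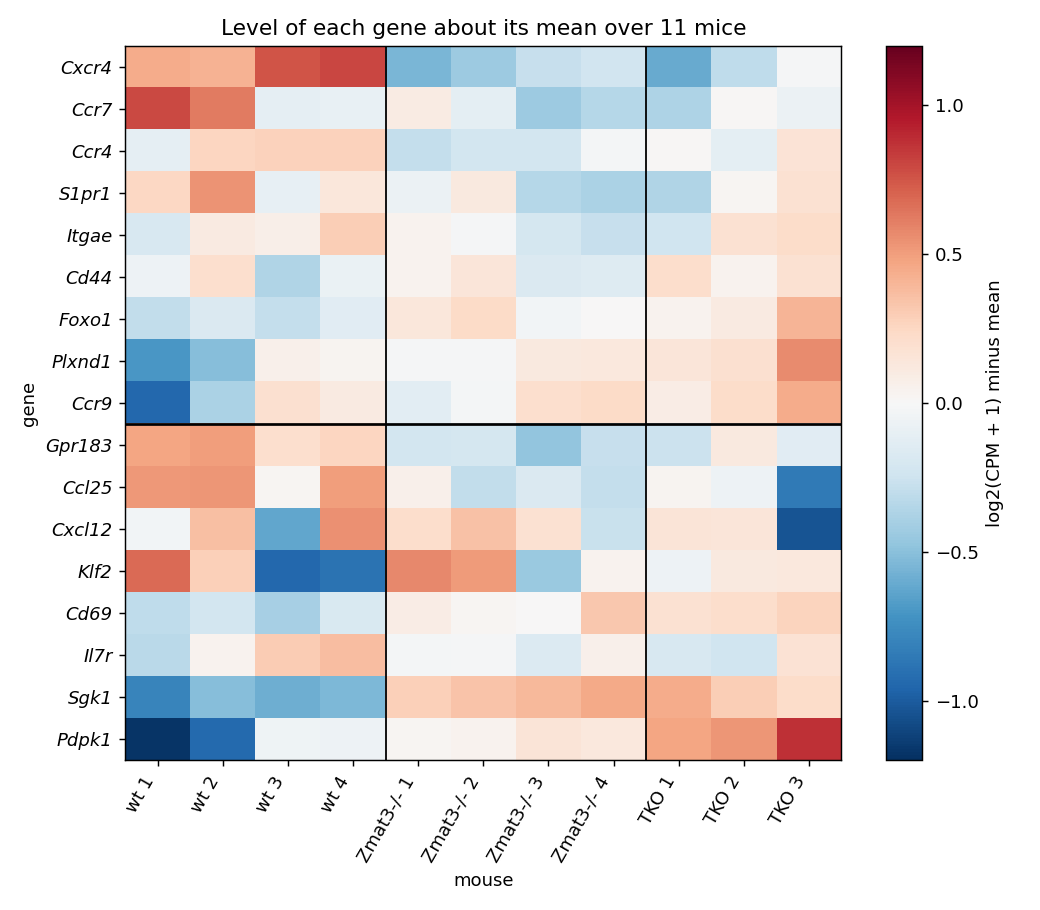
Level of each gene (vertical axis; the 9 members above the line, 8 further genes of migration below) in each mouse (horizontal axis), as log2(CPM + 1) minus the mean of the gene over 11 mice, from blue (lower) to red (higher). *Cxcr4* and *Gpr183* are higher in all 4 wt mice than in the others and *Sgk1* is lower, whereas *Ccr7*, *Ccr9*, *Plxnd1* and *Pdpk1* set wt mice 1 and 2 apart from wt mice 3 and 4.

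Among 12957 genes tested in all comparisons, the genes with the level pattern most like that of each member over the 11 mice were found by the root mean square difference of log2 CPM, each gene taken about its own mean. *Plxnd1* was closest to *Flna* and *Ablim1*, which differed from it by 0.0405 and 0.0495, beside 0.325 for the variation of *Plxnd1* itself. *Foxo1* was closest to *Rad23b* (0.0483) and *Atmin* (0.0650), *Ccr4* to *Arhgap4* (0.0669) and *Chpf2* (0.0723), and *Ccr9* to *Txlng* (0.0729) and the leukocyte phosphatase gene *Ptprc* (0.0768). For *Ccr7* they were *Syngr2* (0.0835) and the actin gene *Actb* (0.0999), for *Cd44* *St13* (0.0966), and for *Itgae* *Nfam1* (0.0967) and *Sp6* (0.100). Those nearest to *S1pr1* were *Alkbh1* (0.138) and *Eng* (0.139). *AC144860.1* (0.135) and *2700038G22Rik* (0.161) were nearest to *Cxcr4*. These differences stand beside a variation of the member itself of 0.495 for *Cxcr4*, 0.375 for *Ccr7*, 0.363 for *Ccr9*, 0.286 for *S1pr1*, 0.209 for *Foxo1*, 0.207 for *Ccr4*, 0.200 for *Itgae* and 0.182 for *Cd44*, so they are not ranked between members. *AC144860.1* had 9.72 to 14.3 CPM in wt, 5.29 to 6.56 CPM in *Zmat3-/-* and 5.50 to 7.65 CPM in TKO mice. No other member of the 9 was among these nearest genes.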

How the data were processed

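The authors demultiplexed the reads with bcl2fastq, ran the nf-core/rnaseq pipeline with its Salmon option against GRCm38.p6 and GENCODE M25, and deposited estimated counts per gene (all whole numbers, not normalized) of 11 mice. Their own tests used DESeq2 1.40.0. Here 54166 of 54418 genes were matched to GENCODE M21. Genotypes came from the sample labels and each pair was tested in edgeR 4.0.16 under R 4.3.3 (TMM, quasi-likelihood test, two-sided, Benjamini-Hochberg over all genes tested). The low-count filter asked for 20 counts (after scaling to the library with the lowest total) in a number of mice equal to the smaller group; the test omitted *Xist*, rRNA, chromosome Y and non-coding immunoglobulin genes. Standard errors are the absolute log2FC over the square root of F. CPM used TMM factors over 11 mice; log2 CPM had a prior count of 2; levels per kb used the union of annotated exons. Promoter sequences and motif shares came from RefSeq windows in GRCm38.p6.

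The members and lists were chosen with earlier results of these data known. Named were all members, the targeted genes, the ligands and egress genes given by name, list genes with an adjusted p under 0.05 (up to 8 per comparison) and the 2 nearest genes per member (2 genes under this rule are not reported here); *Gpr183*, the other genes called only by DESeq2, and the markers and immediate-early genes were added after their values were seen. Same-numbered *Zmat3-/-* and wt mice deviated together (correlations of 0.128 to 0.337 across genes), which met the rule for giving blocked values beside the calls; mice numbered 1 and 2, and 3 and 4, correlated as much across numbers (0.157 to 0.377), so the deviations do not single out the number; the pairing comes from replicate numbers in the labels, which are not described as pairs. The mice of a group are separate samples in the labels, and p-values measure the spread between them. The fit was tested on simulated data. Alternatives were RLE factors, DESeq2 1.42.0, other filters, no gene class left out, 1 fit of 3 genotypes, the block, 1 surrogate variable (sva 3.50.0), the *Xist* level and each mouse left out. At 3 counts the smallest library showed 0.170 CPM.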

Additional observations from a re-analysis of the deposited data

Results flagged for a closer look

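In a check for single mice far from their group, made in wt and in *Zmat3-/-* mice for 23 genes (46 groups of 4 mice, of which chance flags about 1 in 20), 2 groups had such a mouse. *Ccr4* in wt mice had a gap of 0.940 of the range, because wt mouse 1 was at 33.5 CPM and the others at 43.5 to 44.2 CPM. *Ccl25* in wt mice had a gap of 0.946 of the range, because wt mouse 3 was at 30.8 CPM and the others at 43.3 to 44.1 CPM. Both gaps were above the critical value of Dixon's test for 4 mice. The 3 TKO mice were too few for this check.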

How the results depend on the processing

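Of the 9 genes in *Zmat3-/-* against wt mice, 1 had an adjusted p under 0.05; DESeq2 called 2 (*Cxcr4* and *Foxo1*), 1 surrogate variable 5, the replicate block 0, and leaving out 1 mouse 0 to 1. In TKO against wt mice the main pairwise edgeR fit called none and DESeq2 called 2 (*Cxcr4* and *Foxo1*). An edgeR fit of all 3 genotypes and one with the *Xist* level each called 1 (*Cxcr4*). In TKO against *Zmat3-/-* mice none was called under any alternative run. RLE factors, the other filters and the gene classes changed no such count. DESeq2 called 8.04% and 2.87% of all genes in *Zmat3-/-* and TKO against wt mice, and leaving out 1 mouse moved the number of called genes from 103 to between 17 and 105 in the first and from 39 to between 16 and 42 in the second; the cause was not tested.

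Of 441 recomputed log2FC of the 9 genes, 406 kept direction and call, 9 gained and 7 lost a call, and 19 changed sign, each for a difference near 0. In TKO against *Zmat3-/-* mice *Ccr7* (main log2FC −0.0021) was 0.0025 with RLE factors, 0.0058 with DESeq2, 0.012 without the low-count filter, 0.012 with 3 genotypes, 0.011 with a surrogate variable, 0.031 with the *Xist* level and −0.12 to 0.12 without 1 mouse. *Cxcr4* was −0.018 with the *Xist* level and −0.043 to 0.14 without 1 mouse. *Itgae* in TKO against wt mice was 0.030 with the replicate block and −0.17 to 0.091 without 1 mouse, and *Cd44* in *Zmat3-/-* against wt mice was −0.048 to 0.12 without 1 mouse.

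In the comparisons with TKO mice the replicate numbers did not pair the mice by the rule that every pair correlate above 0.1 (same-number correlations 0.073, 0.302 and 0.405 against wt and 0.195, 0.010 and 0.174 against *Zmat3-/-* mice), and the block called 0 of the 9 genes in both. Against wt mice it ended the calls of *Cxcr4*, *Sgk1*, *Ms4a4b* and 3 of 6 immediate-early genes in *Zmat3-/-* mice, and of all 6 in TKO mice (adjusted p 0.0927 to 0.195). A missing call does not show that levels were alike.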
